A study of Mus musculus with 8 samples.

Results

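The genes described here encode parts of the sarcomere and the contractile apparatus of muscle. They were chosen by gene symbol on the array: skeletal and cardiac actin, tropomyosins, troponins, myosin light chains and their kinases, myosin binding proteins, alpha-actinins, myomesins, myozenins, leiomodins, xin repeat proteins, nebulin and nebulette, titin, telethonin, Ldb3, desmin, muscle creatine kinase and myoglobin. The pattern found 58 of the 37074 gene names on the array, with 120 of its 56605 probes. Myosin heavy chains were not among them. One match, Tnni3k, is a kinase whose name holds that of a troponin, and it was counted as matched by name. The rule used gene symbols alone.

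RNA came from C2C12, an immortalized mouse myoblast line, at passage 10, collected while the cells were proliferating. All 8 cultures had been transfected with Lipofectamine 2000 and antisense GapmeRs, which are oligonucleotides that direct RNase H to the RNA they pair with. In the silenced group of 4 biological replicates the GapmeRs were directed against the lncRNA Pvt1, and in the control group of 4, which the labels call mock, they were negative control GapmeRs. Each RNA was labelled with Cy3 and hybridized to a one-colour Agilent array of 60-base probes, and values are given as log2 of the quantile normalized signal.

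Background on the sarcomere may help in reading the values. Thin filaments are built of actin, wound with tropomyosin and troponin, and slide past thick filaments of myosin, whose heads carry light chains. The Z disc anchors thin filaments through alpha-actinin, titin runs from the Z disc to the M band, and desmin links neighbouring myofibrils. Proliferating myoblasts already make some of these proteins, alongside the non-muscle forms that every cell uses, whereas the adult muscle forms appear after the cells fuse into myotubes.

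The targeted RNA was lower on every silenced array. The protocols name a pair of GapmeRs against Pvt1, shown here in lower case because they are the agents of the silenced group.
Pvt1_1: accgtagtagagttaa
Pvt1_3: agtcaacgcttcacat
The brightest Pvt1 probe, at chr15:62081020-62081079 on build mm9, read 9.65, 9.79, 10.31 and 9.70 on the control arrays and 7.09, 6.69, 7.85 and 6.39 on the silenced arrays. Pvt1 fell by 2.86 ± 0.32 on the log2 scale (SE, n = 4 and 4), a 7.27-fold difference, with adjusted p = 0.00068 (limma, Benjamini-Hochberg). Over the whole array, 28649 probes were tested, of which 1373 were higher and 5269 lower in silenced cells, with a median change of -0.19, which is not subtracted from the changes below. Taken gene by gene, through the tested probe of the highest mean signal, 19360 genes were tested and their median change was -0.09. The 4th silenced array was the dimmest, with 51.6% of its spots positive and significant against 58.8% to 62.5% on the other arrays.

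Of the 58 contractile genes, 47 had a probe with enough values to be tested, 3 were higher in silenced cells, 7 were lower and 37 did not pass the adjusted threshold of 0.05. The genes that fell were cardiac actin Actc1, Xirp1, skeletal actin Acta1, desmin (Des), Tpm1, Mylk and Actn3, and those that rose were Myl6b, Mylk2 and Tnni2. By the same rule 14.0% of all tested genes were lower and 5.99% were higher, so that the count of contractile genes lay close to the background in each direction. Their median change was -0.23, against the -0.09 of all genes. Because the cells were measured in bulk, fewer cells of a type and less RNA per cell cannot be told apart. Array groups that did not overlap at all were found in 9 contractile genes with lower and 3 with higher values in silenced cells, where the background was 18.9% and 7.10% of all genes. Under another scaling, cyclic loess, the median change of all probes moved to 0.02, and the contractile genes split into 8 higher and 8 lower, beside backgrounds of 22.1% and 14.3%. With the row of the slide as a block, 1 rose and 5 fell, beside backgrounds of 2.41% and 5.97%.

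**Figure D1:**
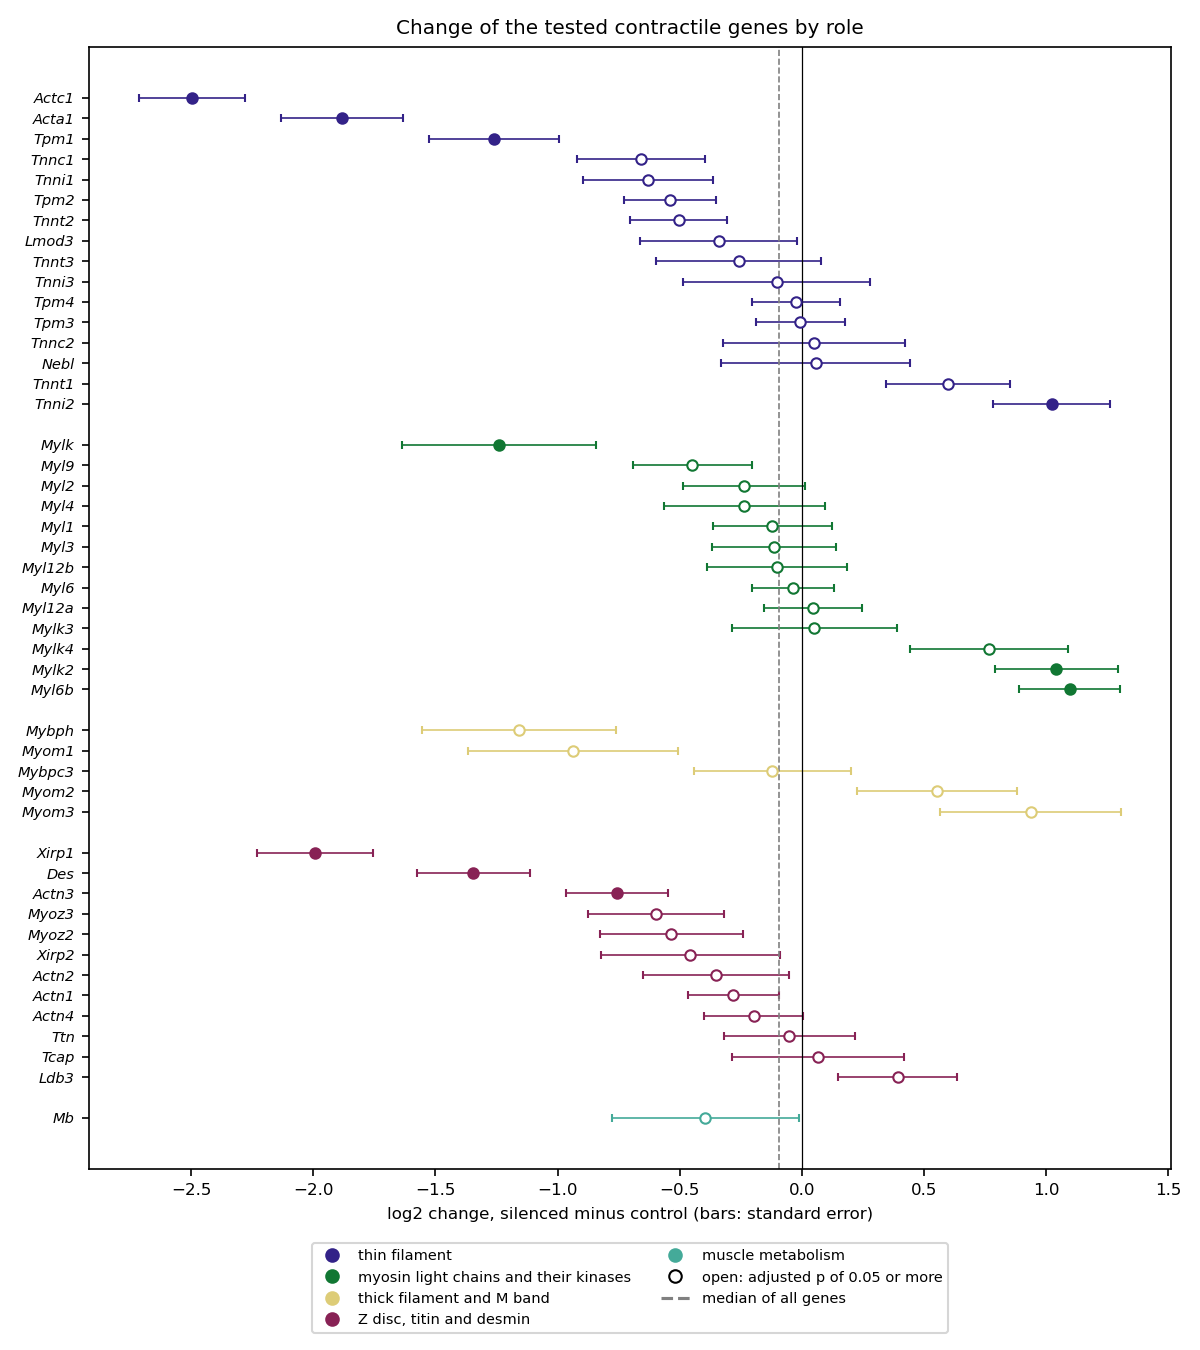
Log2 change (silenced minus control, n = 4 and 4) of the 47 tested contractile genes, each through its brightest tested probe, grouped by role. Bars are standard errors, filled points passed the adjusted threshold and the dashed line is the median of all genes, and the filled points lie between -2.50 (Actc1) and -0.76 (Actn3) on the left and between 1.02 (Tnni2) and 1.10 (Myl6b) on the right.

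Among the 19 thin filament genes, 16 were tested, 3 fell and 1 rose, with a median change of -0.30. Of all genes tested, 14.0% fell and 5.99% rose. By brightest probe, the largest fall of any contractile gene was that of Actc1, the cardiac alpha-actin, which immature skeletal muscle cells also make. Its probe spans an exon junction (mm9, chr2:113874011-113874934, minus strand) and is shown because it carries this value.
Actc1 probe: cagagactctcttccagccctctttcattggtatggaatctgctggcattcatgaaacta
Actc1 read 13.22, 13.53, 13.64 and 13.33 on the control arrays and 10.90, 11.35, 10.64 and 10.84 on the silenced arrays. The groups lay far apart, with no silenced array within 1 log2 unit of any control. Actc1 fell by 2.50 ± 0.22 (SE), a 5.65-fold difference (adjusted p = 0.00033).

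Acta1, the alpha-actin of adult skeletal muscle, behaved likewise. It read 11.10, 11.40, 11.61 and 11.24 in the controls and 9.65, 9.97, 9.14 and 9.08 in the silenced cultures, again without overlap. The fall was 3.68-fold, or -1.88 ± 0.25 (SE) on the log2 scale (adjusted p = 0.0013).

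The other actin genes of the mouse stood outside the symbol rule and were taken from the list of sarcomere partners. Actg2, an actin of enteric smooth muscle, read 13.63, 13.87, 13.82 and 13.78 in the controls and 11.56, 11.90, 11.10 and 11.26 in the silenced cultures, a change of -2.32 ± 0.22 (adjusted p = 0.00043). For Acta2, the vascular smooth muscle actin, the controls read 15.81, 15.69, 16.42 and 16.02 and the silenced cultures 14.32, 14.58, 14.10 and 14.14, a change of -1.70 ± 0.23 (adjusted p = 0.0013). The cytoplasmic gamma-actin Actg1 read 16.75, 16.71, 16.74 and 16.78 in the controls and 15.52, 15.88, 15.20 and 15.83 in the silenced cultures, a change of -1.14 ± 0.21 (adjusted p = 0.0048). These 3 genes fell, each without overlap between groups. The cytoplasmic beta-actin Actb read 16.77, 16.78, 16.78 and 16.76 in the controls and 16.84, 16.81, 16.65 and 16.86 in the silenced cultures, a difference of 0.02 ± 0.17 (adjusted p = 0.96). None of these actin spots was saturated. All 3 tested probes of Actg1 fell, with -1.38 and -1.30 for the other two. Of the 3 tested probes of Acta2, a junction probe changed by -2.07 (adjusted p = 0.00067), while the probe nearest the 3′ end changed by -0.82 (adjusted p = 0.082). The actin genes have closely related coding sequences. In the 39 pairs of tested probes from different actin genes, the best ungapped match was 20 equal bases of 41 (48.8%), so that the probes themselves are different sequences. How far each probe binds the RNA of another actin gene was not tested.

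**Figure D2:**
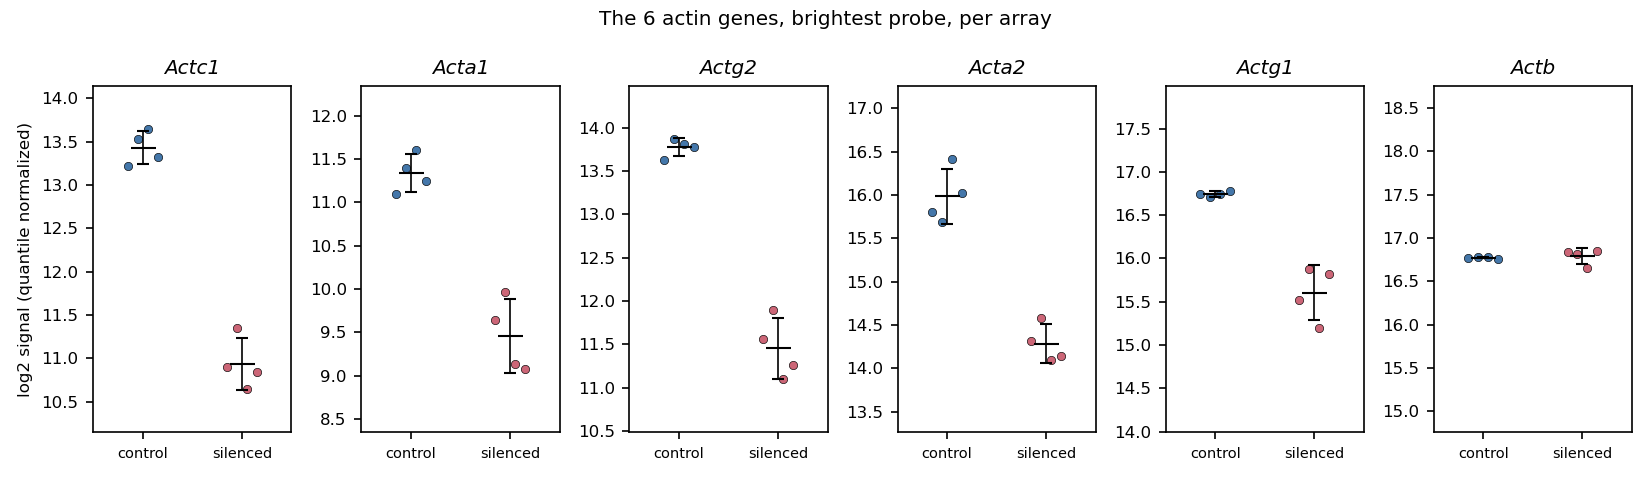
Log2 quantile normalized signal of the 6 actin genes on each array (4 control in blue, 4 silenced in red), with the mean and SD of each group as bars and all panels spanning the same log2 range. The groups are apart for Actc1, Acta1, Actg2, Acta2 and Actg1, and overlap for Actb, where the change was 0.02.

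Since 5 of the 6 actins fell, their promoters were examined in RefSeq windows (build GRCm38.p6) from 250 bases before to 50 after the start of transcription. Of 4 actin genes with a window, 3 held a CArG box, the binding motif of serum response factor, searched on both strands. These were Acta1, Actc1 and Actg1, which all fell. The remaining window, that of Acta2, Actg2 or Actb, held no box, and the others of these had no window. Whether the box goes with a fall among the actins was not tested. The 250 bases upstream of the alpha-actin genes are shown, with the CArG box in capitals.
Acta1, chr8:123894776-123895025 (GRCm38.p6, minus strand): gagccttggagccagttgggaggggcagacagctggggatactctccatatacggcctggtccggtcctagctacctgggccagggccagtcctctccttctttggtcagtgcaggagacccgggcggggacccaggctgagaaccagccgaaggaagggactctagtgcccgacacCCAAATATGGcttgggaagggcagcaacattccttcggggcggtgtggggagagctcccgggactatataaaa
Actc1, chr2:114052876-114053125 (GRCm38.p6, minus strand): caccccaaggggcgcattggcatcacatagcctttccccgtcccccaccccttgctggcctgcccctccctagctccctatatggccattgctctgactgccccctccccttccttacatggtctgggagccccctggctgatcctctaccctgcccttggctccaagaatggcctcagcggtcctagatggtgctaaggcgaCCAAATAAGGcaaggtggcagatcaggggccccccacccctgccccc
The box began 73 bases before the start in Acta1, 47 in Actc1 and 90 in Actg1. A CArG box stood in 1.81% of the 27025 genes with a window, and in 9 of the 47 contractile genes with one (19.1%). Of these 9 genes, Acta1 and Actc1 fell, Ldb3, Myl3, Myl6, Myl9, Myom1 and Nebl did not pass the test, and Myl7 was not tested. The shorter E-box, CANNTG, was in 44 of the 47 windows and in 75% of all windows. A MEF2 motif was in 7 of the 47 and in 3.70% of all windows, and in none of the 5 genes with a window that fell. A match describes the letters of a window and is not evidence of binding.

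Tropomyosins, the coiled-coil proteins that lie along actin, differed between genes and between probes of a gene. Tpm1 was represented by a probe that read 14.16, 14.32, 13.55 and 14.37 in the controls and 13.04, 13.21, 12.38 and 12.73 in the silenced cultures. It fell by 1.26 ± 0.27 (SE; adjusted p = 0.0091), a 2.39-fold difference, and the groups did not overlap. Another Tpm1 probe, which holds a polyadenylation hexamer, read 9.92, 9.91, 9.70 and 10.07 in the controls and 8.67, 8.89, 8.40 and 8.23 in the silenced cultures, a change of -1.35 ± 0.21 (adjusted p = 0.0025). A further probe read 9.51, 9.82, 9.05 and 9.89 in the controls and 8.46, 8.35, 8.51 and 7.71 in the silenced cultures, and changed by -1.31 ± 0.27 (adjusted p = 0.0080). The remaining probe read 9.42, 9.81, 8.86 and 9.71 in the controls against 9.01, 9.16, 8.53 and 8.28 in the silenced cultures, a change of -0.71 ± 0.29 that did not pass (adjusted p = 0.10). All 4 Tpm1 probes thus had lower means in silenced cells, and 3 of them passed.

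Tpm2, beta-tropomyosin, had a pair of tested probes designed on different transcripts. The brighter read 13.40, 13.79, 13.67 and 13.76 in the controls and 13.15, 13.20, 13.18 and 12.91 in the silenced cultures. The groups did not overlap, but the change of -0.54 ± 0.19 did not pass (adjusted p = 0.065). The other probe read 11.46, 11.83, 11.13 and 11.86 in the controls and 9.45, 9.71, 9.18 and 8.73 in the silenced cultures. It fell by 2.30 ± 0.27 (adjusted p = 0.00080), a 4.93-fold difference, and lies 4370 bases downstream of the first.

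Tpm3, a tropomyosin of slow fibres with non-muscle isoforms, had 5 tested probes. The brightest read 15.94, 16.01, 15.73 and 15.99 in the controls and 15.77, 15.89, 16.11 and 15.86 in the silenced cultures, a difference of -0.01 ± 0.18 (adjusted p = 0.99). The probe at the 3′ end read 14.22, 14.48, 14.28 and 14.35 in the controls and 14.30, 14.28, 14.10 and 13.96 in the silenced cultures, with a change of -0.18 ± 0.18 (adjusted p = 0.54). The groups overlapped in both probes. Farther upstream, 10879 bases from the 3′-most probe, a probe read 10.45, 10.89, 9.17 and 10.73 in the controls and 9.11, 9.85, 8.75 and 8.15 in the silenced cultures, a change of -1.34 ± 0.45 (adjusted p = 0.056). At 11777 bases, another read 8.07, 8.45, 7.68 and 8.51 in the controls and 6.54, 6.76, 6.46 and 5.94 in the silenced cultures, and it fell by 1.75 ± 0.26 (adjusted p = 0.0021). The probe at 21165 bases read 8.61, 9.13, 8.06 and 9.26 in the controls and 7.85, 7.91, 7.95 and 6.65 in the silenced cultures, and fell by 1.17 ± 0.37 (adjusted p = 0.044). Tpm4, a largely non-muscle tropomyosin, read 15.67, 15.84, 15.68 and 15.57 in the controls and 15.65, 15.62, 15.86 and 15.53 in the silenced cultures. Its groups overlapped, with a change of -0.03 ± 0.18 (adjusted p = 0.94). The signs of the Tpm3 and Tpm4 changes at these bright probes turned under several scalings.

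Troponin couples calcium to contraction through a calcium-binding subunit (C), an inhibitory subunit (I) and a tropomyosin-binding subunit (T). Tnni2, the fast skeletal inhibitory subunit, was the only troponin called by its brightest probe, among the 8 tested. Tnni2 read 9.26, 9.38, 10.07 and 9.76 in the controls and 10.64, 10.77, 10.85 and 10.29 in the silenced cultures. It was higher on every silenced array, by 1.02 ± 0.24 (SE) or 2.03-fold (adjusted p = 0.015). The slow skeletal subunit Tnni1 had a brighter probe that read 9.26, 9.63, 10.26 and 9.59 in the controls and 9.23, 9.33, 9.08 and 8.58 in the silenced cultures, a change of -0.63 ± 0.27 (adjusted p = 0.12). Its other probe crosses an exon junction 1330 bases upstream and read 8.03, 8.34, 8.86 and 8.43 in the controls and 7.41, 7.42, 7.28 and 6.14 in the silenced cultures, a fall of 2.55-fold (change -1.35 ± 0.32, adjusted p = 0.016). The cardiac subunit Tnni3 changed by -0.10 ± 0.38 (adjusted p = 0.88), and by 0.23 without the 4th silenced array.

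The remaining troponins did not pass. Slow skeletal Tnnt1 had probes of opposite sign. The brighter read 8.44, 8.67, 8.87 and 8.77 in the controls and 9.38, 9.32, 9.77 and 8.67 in the silenced cultures (change 0.60 ± 0.25, adjusted p = 0.12). Its upstream probe read 8.12, 8.63, 8.71 and 8.58 in the controls and 8.08, 8.19, 8.68 and 7.43 in the silenced cultures (change -0.41 ± 0.28, adjusted p = 0.32). Cardiac Tnnt2 was lower on every silenced array, yet its change of -0.50 ± 0.20 had adjusted p = 0.097. Fast skeletal Tnnt3 changed by -0.26, -0.93 and -1.18 in its 3 tested probes (the lowest adjusted p was 0.063). Without the 4th silenced array the first was 0.0025 and the last -0.80. The adjusted p of the last ran from 0.037 with cyclic loess to 0.22 when the slide row was blocked. The calcium-binding subunits were Tnnc1, of slow and cardiac muscle, with a change of -0.66 ± 0.26 (adjusted p = 0.10), and Tnnc2, of fast muscle, with 0.05 ± 0.37 (adjusted p = 0.94). Lmod3, which nucleates thin filaments, changed by -0.34 ± 0.32 (adjusted p = 0.49). Nebl, a short relative of nebulin, was dim, with a probe at 5.58, 5.77, 6.39 and 5.60 in the controls and 6.50, 5.71, 6.53 and 4.83 in the silenced cultures (change 0.06 ± 0.39, adjusted p = 0.94) and another at 5.28, 5.32, 6.40 and 5.70 in the controls and 5.84, 5.21, 6.0 and 4.93 in the silenced cultures, above background on 1 control array alone.

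**Figure D3:**
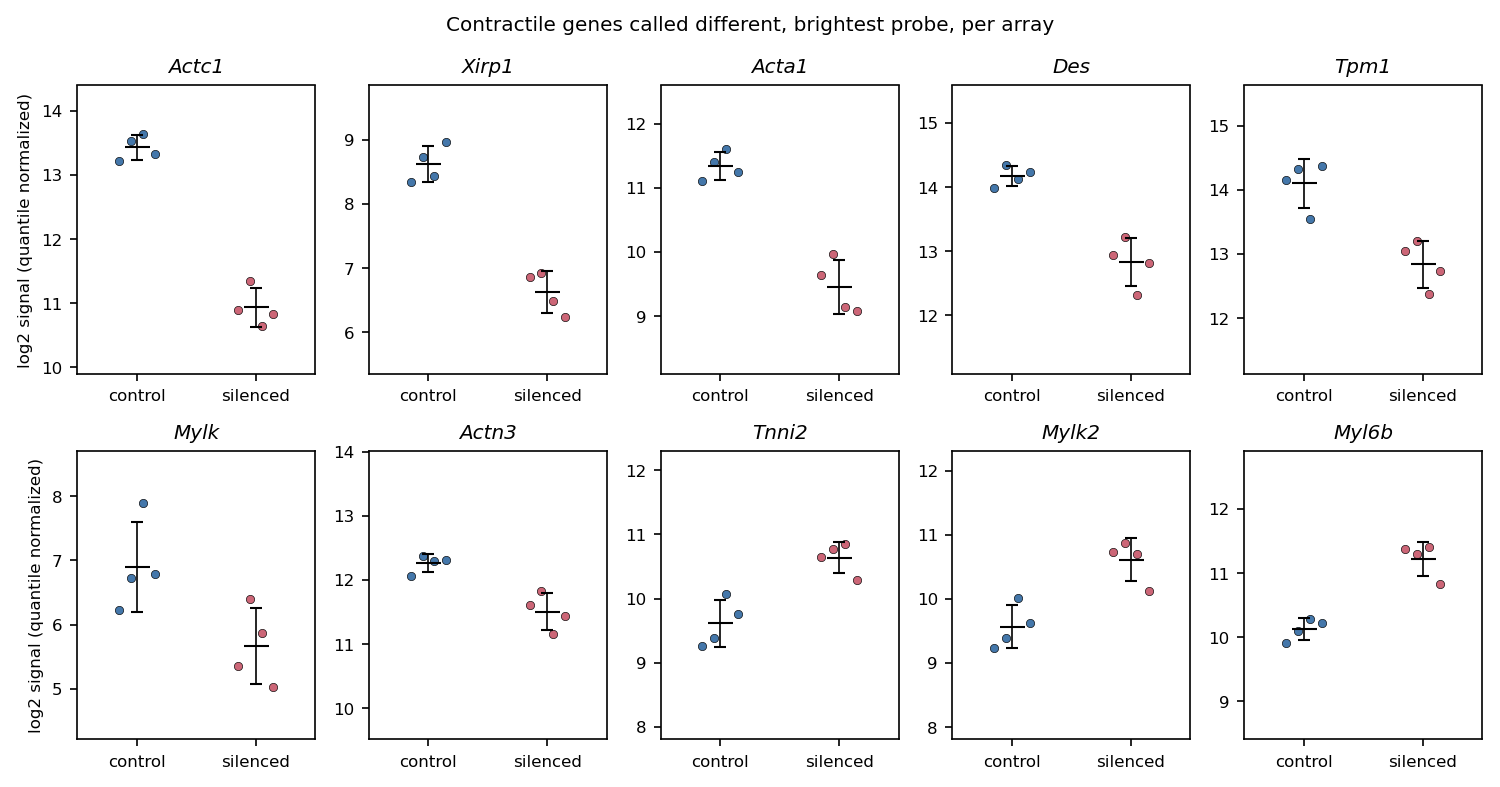
Log2 quantile normalized signal on each array (4 control in blue, 4 silenced in red) for the 10 contractile genes called different, with the mean and SD of each group as bars and every panel spanning the same log2 range. Actc1 shows the widest gap, 13.43 against 10.93 in the means, and Mylk is the panel in which the groups overlap.

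Myosin light chains stabilize the lever arm of myosin, and the light chain kinases phosphorylate the regulatory chains. Of these 15 genes, 13 were tested, 2 rose and 1 fell, with a median change of -0.10, beside 5.99% higher and 14.0% lower among all genes. Myl6b, an essential light chain of slow skeletal and non-muscle myosin, read 9.91, 10.09, 10.29 and 10.22 in the controls and 11.37, 11.30, 11.40 and 10.83 in the silenced cultures. It rose 2.14-fold, by 1.10 ± 0.21 (SE), without overlap (adjusted p = 0.0057). A second Myl6b probe read 7.86, 8.04, 8.61 and 8.35 in the controls and 8.64, 8.60, 8.87 and 7.57 in the silenced cultures, a change of 0.21 ± 0.31 that did not pass (adjusted p = 0.68). The files place the 2 probes on opposite strands, so the gene enters no comparison by position along the transcript. Mylk2, the skeletal muscle light chain kinase, read 9.24, 9.39, 10.02 and 9.62 in the controls and 10.74, 10.88, 10.70 and 10.12 in the silenced cultures. It rose 2.06-fold, by 1.04 ± 0.25 (adjusted p = 0.016), and its groups did not overlap.

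Mylk, the light chain kinase of smooth muscle and non-muscle cells, was dim, well above background on 4 control arrays and 1 silenced array. It read 6.23, 6.72, 7.89 and 6.78 in the controls and 5.36, 6.39, 5.87 and 5.03 in the silenced cultures, so that the groups overlapped. The change of -1.24 ± 0.40 lay just inside the threshold (adjusted p = 0.049) and failed it in 16 of 22 alternatives, among them the omission of the 3rd control (change -0.91) or of the 4th silenced array (-1.03), and of both (-0.70). Its other probe read 5.35, 5.97, 6.56 and 5.99 in the controls and 5.45, 5.22, 5.94 and 4.35 in the silenced cultures, above background on 1 control array alone.

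The non-muscle light chains were among the brightest probes that did not pass. Myl6, the essential chain of smooth and non-muscle myosin, read 16.66, 16.58, 16.66 and 16.68 in the controls and 16.67, 16.65, 16.51 and 16.60 in the silenced cultures, a change of -0.04 ± 0.17 (adjusted p = 0.90). A probe 869 bases upstream read 15.01, 15.15, 15.29 and 15.09 in the controls and 14.57, 14.56, 14.54 and 14.30 in the silenced cultures and fell by 0.64 ± 0.18 (adjusted p = 0.030). Another, at 1245 bases, read 15.89, 16.05, 15.90 and 15.97 in the controls and 15.63, 15.63, 15.66 and 15.65 in the silenced cultures, a change of -0.31 ± 0.17 (adjusted p = 0.22). The upstream pair showed no overlap between groups, whereas the brightest probe did. Myl12a, a regulatory chain of non-muscle myosin, read 15.96, 15.99, 15.40 and 15.97 in the controls and 15.91, 15.87, 15.89 and 15.84 in the silenced cultures. Its change was 0.05 ± 0.20 (adjusted p = 0.90), and it took the opposite sign, -0.10, without the 3rd control. The other regulatory chains of this kind, Myl12b and Myl9, changed by -0.10 ± 0.28 (adjusted p = 0.83) and -0.45 ± 0.24 (adjusted p = 0.22).

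Apart from Myl6b, the tested light chains grouped as striated muscle did not pass by their brightest probes. Myl4, the atrial and embryonic essential chain, read 9.21, 9.44, 10.32 and 9.48 in the controls and 9.56, 9.36, 9.93 and 8.66 in the silenced cultures (change -0.23 ± 0.33, adjusted p = 0.65). A Myl4 probe across a junction, 2695 bases upstream, read 7.86, 8.49, 9.07 and 8.46 in the controls and 7.12, 7.65, 7.34 and 6.73 in the silenced cultures. It fell by 1.26 ± 0.30 (adjusted p = 0.015), a 2.4-fold difference without overlap. Fast skeletal Myl1 changed by -0.12 ± 0.24 (adjusted p = 0.76), with -1.06 ± 1.05 in another probe and 1 more above background on 1 array only. The change of -1.06 became 0.24 without the 4th silenced array, which read 5.74 against 10.70 to 11.24 on the other silenced arrays. Myl2 and Myl3, the ventricular and slow chains, changed by -0.24 ± 0.25 (adjusted p = 0.54) and -0.11 ± 0.25 (adjusted p = 0.79). Mylk3, the cardiac kinase, lay above background on no array. Mylk4 was not well above background on any control array but was so on 3 silenced arrays, at least 1.20-fold higher there (means 5.55 and 6.31, adjusted p = 0.12).

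None of the 8 genes of the thick filament and M band passed by its brightest probe, and 5 were tested, with a median change of -0.12. Mybph, myosin binding protein H of the A band, had a pair of tested probes. One read 6.02, 6.16, 7.45 and 6.61 in the controls and 4.77, 5.73 and 5.70 on the 3 silenced arrays with a value. It was above background on 2 control arrays and no silenced array, at least 1.31-fold higher in the controls (means 6.56 and 5.40, adjusted p = 0.068). The other, 582 bases upstream and across a junction, read 6.94, 7.08, 7.99 and 7.40 in the controls and 4.23, 5.63, 4.68 and 4.18 in the silenced cultures. This probe was well above background on all 4 control arrays and on no silenced array. It was at least 2.28-fold higher in the controls (means 7.35 and 4.68, adjusted p = 0.0013), the bound being set by the dimmest signal well above background. Cardiac Mybpc3 changed by -0.12 ± 0.32 (adjusted p = 0.83). Of the myomesins, which cross-link myosin at the M band, Myom2 changed by 0.55 ± 0.33 (adjusted p = 0.25), and Myom1 lay above background on no array. Myom3 was so on 2 silenced arrays and no control, at least 1.08-fold higher in silenced cells (means 5.22 and 6.16, adjusted p = 0.098).

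At the Z disc, 13 genes including titin and desmin were listed, 12 were tested and 3 fell, with a median change of -0.40. The background was 14.0% lower among all genes tested. Xirp1, an actin-binding protein with xin repeats, read 8.34, 8.74, 8.43 and 8.96 in the controls and 6.86, 6.92, 6.49 and 6.23 in the silenced cultures. It fell by 1.99 ± 0.24 (SE), a 3.98-fold difference without overlap (adjusted p = 0.00084). Des, the muscle intermediate filament protein and a marker of myoblasts, read 13.98, 14.34, 14.13 and 14.23 in the controls and 12.93, 13.22, 12.32 and 12.82 in the silenced cultures. It fell by 1.35 ± 0.23, or 2.54-fold (adjusted p = 0.0037), and the silenced arrays lay below every control. Actn3, the alpha-actinin of fast fibres, read 12.06, 12.37, 12.30 and 12.31 in the controls and 11.61, 11.83, 11.15 and 11.43 in the silenced cultures. The groups did not overlap, and the change was -0.76 ± 0.21, or 1.69-fold (adjusted p = 0.027). It missed the threshold in 9 of 23 alternatives. Xirp2, a dim relative of Xirp1, was above background on 1 control array and no silenced array, and no change is given for it.

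Actn1, a non-muscle alpha-actinin that cross-links actin, gave the widest disagreement between probes of any contractile gene. Its brightest probe, at chr12:81268736-81268794 (mm9, minus strand), read 14.75, 14.96, 14.80 and 14.91 in the controls and 14.69, 14.42, 14.79 and 14.40 in the silenced cultures. The groups overlapped, with a change of -0.28 ± 0.19 (adjusted p = 0.31). The other probe, 710 bases upstream at chr12:81269446-81269882, crosses an exon junction. It read 13.58, 13.99, 12.84 and 13.94 in the controls and 10.55, 10.97, 9.95 and 10.64 in the silenced cultures, and it fell by 3.06 ± 0.31 (SE), an 8.35-fold difference (adjusted p = 0.00054). The junction probe is printed whole and the 3′ probe as 30 bases, with its polyadenylation hexamer in capitals, because these sequences gave different calls for the same gene.
Actn1, upstream probe across a junction: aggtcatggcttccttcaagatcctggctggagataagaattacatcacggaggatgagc
Actn1, part of the 3′ probe: gtccatgagaatattttatgatATTAAAga
Actn4, the other non-muscle alpha-actinin, read 14.12, 14.30, 14.33 and 14.23 in the controls and 14.23, 14.07, 14.25 and 13.65 in the silenced cultures. Its groups overlapped (change -0.20 ± 0.20, adjusted p = 0.53), and the change was 0.023 under cyclic loess and 0.022 under a shift of each array to a common 75th percentile.

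The other Z disc genes did not pass. Actn2, the alpha-actinin of heart and slow fibres, had a pair of tested probes. The brighter read 7.61, 7.69, 7.86 and 7.77 in the controls and 7.84, 7.23, 7.90 and 6.56 in the silenced cultures (change -0.35 ± 0.30, adjusted p = 0.44), and the other, above background on 1 array, read 5.83, 5.22, 5.79 and 5.60 in the controls and 5.74, 7.30, 6.21 and 4.12 in the silenced cultures. Ldb3, a PDZ-LIM protein that binds alpha-actinin, also split by probe. One read 8.34, 8.59, 8.08 and 8.73 in the controls and 8.85, 9.10, 9.03 and 8.32 in the silenced cultures (change 0.39 ± 0.24, adjusted p = 0.28). The other, 34467 bases upstream, read 5.89, 6.53, 6.69 and 6.34 in the controls and 6.24, 5.99, 5.66 and 5.01 in the silenced cultures (change -0.64 ± 0.30, adjusted p = 0.16). Tcap, the telethonin that caps titin, changed by 0.07 ± 0.35 (adjusted p = 0.92). Of the myozenins, which bind calcineurin at the Z disc, Myoz2 was well above background on 1 silenced array by a single probe and Myoz3 on none.

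Titin, Ttn, had 6 tested probes spread over 260465 bases, and none passed. The brightest, at the 3′ end, read 9.48, 9.43, 9.99 and 9.56 in the controls and 9.81, 9.52, 10.0 and 8.93 in the silenced cultures (change -0.05 ± 0.27, adjusted p = 0.92). Upstream by 210078 bases, the second read 8.93, 9.13, 10.21 and 9.36 in the controls and 9.08, 9.06, 8.95 and 8.21 in the silenced cultures (change -0.59 ± 0.32). Next came a probe at 132373 bases with 7.74, 8.20, 8.12 and 8.05 in the controls and 7.45, 8.59, 7.99 and 6.15 in the silenced cultures (change -0.48 ± 0.45). All 3 overlapped between groups, with the 4th silenced array the lowest of the 8. The probe 578 bases upstream read 7.27, 7.69, 7.95 and 7.47 in the controls and 7.70, 7.42, 7.73 and 6.17 in the silenced cultures (change -0.34 ± 0.35). At 127782 bases the values were 5.74, 6.85, 6.29 and 6.64 in the controls and 6.26, 6.24, 5.81 and 5.20 in the silenced cultures, and the probe was above background on 3 control arrays and no silenced array, at least 1.11-fold higher in the controls. The farthest probe, above background on 1 array, read 5.27, 5.31, 5.28 and 4.66 in the controls and 7.76, 4.85 and 5.89 on the 3 silenced arrays with a value. The lowest adjusted p among these probes was 0.22.

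Myoglobin, Mb, the oxygen store of muscle, changed by -0.40 ± 0.38 (adjusted p = 0.50), and by -0.057 without the 4th silenced array. The 11 genes without a tested probe were Ckm, Lmod1, Lmod2, Mybpc1, Mybpc2, Mybphl, Myl7, Myl10, Myoz1, Neb and Tnni3k. Ckm, Mybpc1, Myoz1 and Neb were well above background on 1 control array and on no silenced array, and the other 7 on none. These are mostly genes of adult muscle, heart or smooth muscle, including creatine kinase and nebulin. Signal well above background was found for 48 of the 58 genes on at least 1 array and for 36 on all 8. Genes grouped here as also made by cells without sarcomeres numbered 12, of which 11 were tested and 2 fell, with a median change of -0.20. The 45 genes grouped as striated muscle, Myl6b among them although non-muscle cells make it too, had 36 tested. Of these, 3 were higher and 5 lower, with a median of -0.24. Both groups stand beside 5.99% higher and 14.0% lower among all genes tested.

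Within each row of the slide, the 10 called genes changed in the direction of the whole comparison. Row 1 held the controls 1 to 3 and silenced array 1, and row 2 held control 4 and silenced arrays 2 to 4. Actc1 changed by -2.57 in row 1 and -2.38 in row 2, Tpm1 by -0.97 and -1.60, and Tnni2 by 1.07 and 0.88. With row as a block, Actn3 (adjusted p = 0.12), Mylk (0.12), Mylk2 (0.064) and Tnni2 (0.075) no longer passed.

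The probes were also compared by their place on the transcript. Of the 79 tested probes of contractile genes, 17 were lower and 3 higher, against backgrounds of 18.4% and 4.79% of all probes. Of the 23 that cross an exon junction, 8 were lower and none higher, with a median change of -0.66. Over the whole array 35.7% of junction probes were lower, and their median change was -0.64. Of the 12 contractile probes that hold a polyadenylation hexamer (AATAAA or ATTAAA, in the strand of the probe), 3 were higher and 1 was lower, with a median of -0.11. The background for such probes was 10.2% higher and 6.64% lower. All 3 called probes that rose hold the hexamer, and 30 bases of each are shown with it in capitals.
Myl6b, chr10:127931214-127931273 (mm9, minus strand): ttacagttttgaAATAAAaacatggttcct
Mylk2, chr2:152748725-152748784 (mm9, plus strand): ttgtgccttgtaAATAAAaacacaggttgg
Tnni2, chr7:149630241-149630300 (mm9, plus strand): gggagtacttggcctcgctccAATAAAgga
The hexamer probe that was lower is one of Tpm1 (change -1.35). Of the 7 genes that fell, Actc1, Des and Actn3 were measured by a probe across a junction, and Acta1, Mylk, Tpm1 and Xirp1 by one that lies in a single block. That of Des, at chr1:75363404-75363629 (mm9, plus strand), and that of Actn3, at chr19:4861727-4862212 (minus strand), are given for comparison.
Des probe: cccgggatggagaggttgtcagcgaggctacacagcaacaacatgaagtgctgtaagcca
Actn3 probe: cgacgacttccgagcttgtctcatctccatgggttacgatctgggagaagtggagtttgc

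In the 19 contractile genes with tested probes at more than 1 place on 1 strand, the probe farthest 5′ fell more than the probe farthest 3′ in 12 genes (63.2%), with a median difference of -0.51. Over all genes the figure was 4365 of 6271 (69.6%), with a median of -0.42. Where both probes were above background in each group, the count was 9 of 12 contractile genes (75%) and 3282 of 4579 genes in all (71.7%). Actn1, Tpm3, Myl4, Tnnt1 and Ldb3 were among those with the wider gaps, and Tpm2 ran the other way. The same gap could be read on each array. The median of the 5′ minus the 3′ signal of contractile genes was -0.97 to -0.78 on the controls and -1.36 to -1.13 on the silenced arrays, without overlap. Over all genes it was -2.08 to -1.78 and -2.51 to -2.25. RNA was labelled by a kit that primes from the poly(A) tail. The part of probe position in the changes of single contractile genes was not tested.

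**Figure D4:**
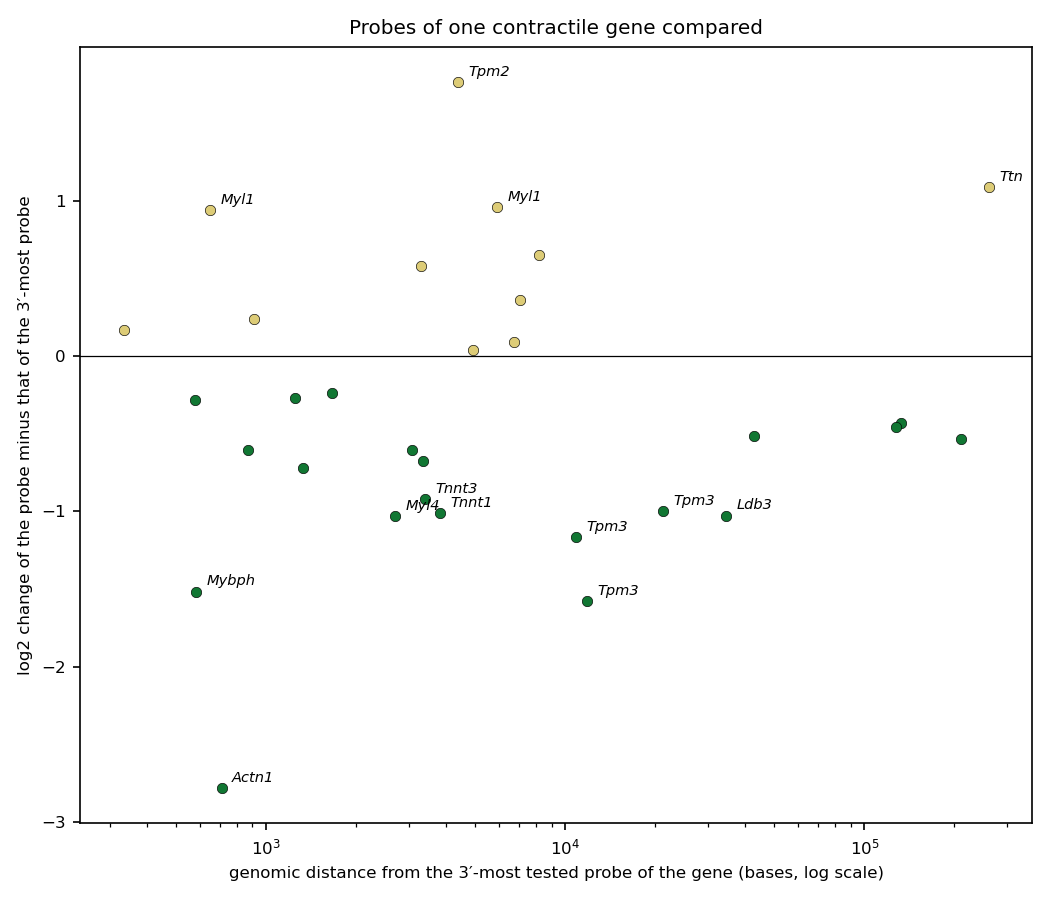
For contractile genes with several tested probes, the log2 change of each upstream probe minus that of the 3′-most probe of the gene, against their genomic distance in bases on a log axis. Points below 0 (green) fell more upstream, the lowest being Actn1, and the highest point above 0 (yellow) is Tpm2.

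**Figure D5:**
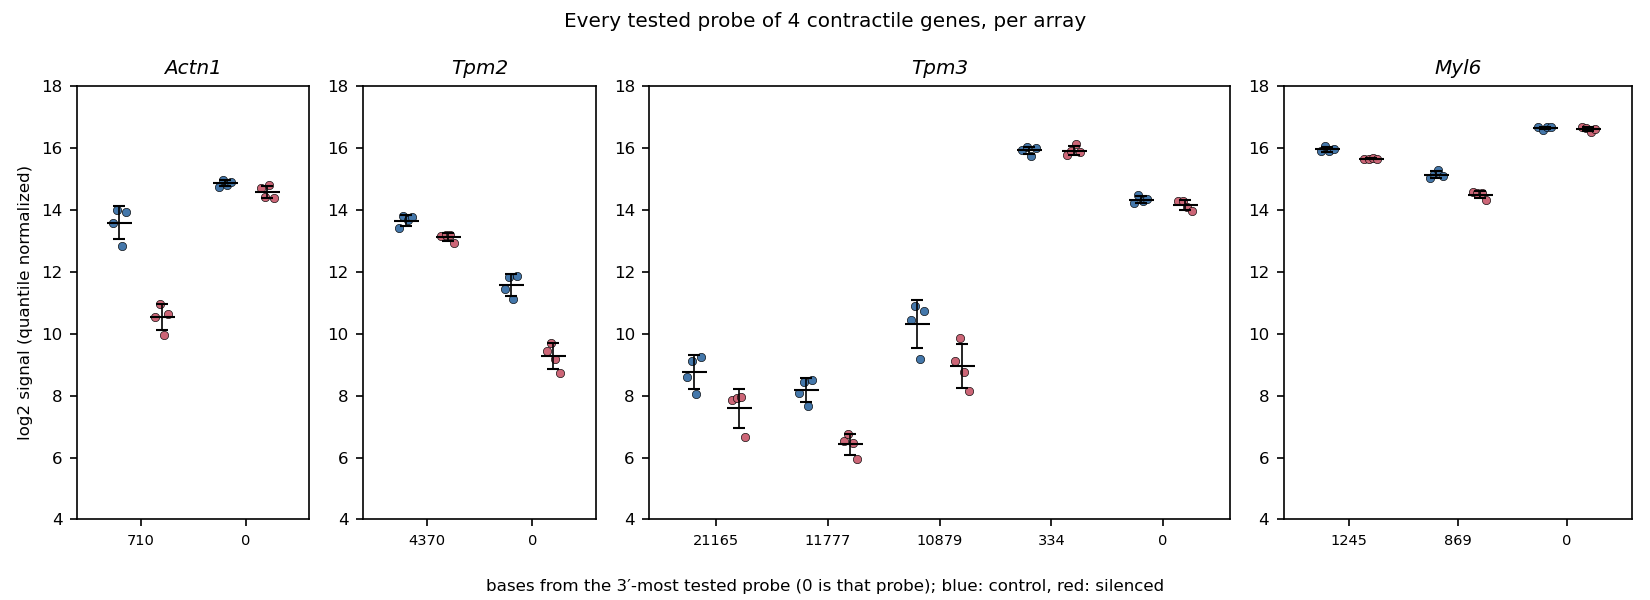
Log2 quantile normalized signal of every tested probe of Actn1, Tpm2, Tpm3 and Myl6 on each array (4 control in blue, 4 silenced in red), ordered by distance in bases from the 3′-most probe, with the mean and SD of each group as bars. In Actn1 the groups overlap at the 3′-most probe and change by -3.06 at 710 bases, whereas in Tpm2 the wider gap is at the 3′-most probe.

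Proteins that work beside the sarcomere were examined in a list of 50 partner genes, which held the other actins. Of these, 42 were tested, 2 were called higher and 8 lower, with a median change of -0.19, beside 5.99% higher and 14.0% lower among all genes tested. Trim54, a RING-finger ubiquitin ligase of muscle, read 8.61, 8.99, 9.37 and 9.27 in the controls and 11.11, 10.98, 11.12 and 10.48 in the silenced cultures. It rose 3.64-fold, by 1.86 ± 0.24 (adjusted p = 0.0012), and its probe holds a polyadenylation hexamer. Capzb, the capping protein of the barbed end of actin at the Z disc, read 14.48, 14.82, 14.77 and 14.83 in the controls and 13.57, 13.94, 13.09 and 13.67 in the silenced cultures (change -1.16 ± 0.23, adjusted p = 0.0068). Ankrd1, an ankyrin repeat protein that binds titin, read 15.26, 15.38, 15.30 and 15.36 in the controls and 14.37, 14.52, 14.20 and 13.93 in the silenced cultures (change -1.07 ± 0.20, adjusted p = 0.0049). Both fell without overlap. Hspb8, a small heat shock protein of chaperone-assisted autophagy, read 13.15, 13.41, 12.59 and 13.37 in the controls and 12.01, 12.33, 12.03 and 11.82 in the silenced cultures (change -1.08 ± 0.24, adjusted p = 0.011). Fhl3, a LIM-domain protein of muscle, read 7.50, 7.52, 7.05 and 7.74 in the controls and 5.81, 5.84, 6.33 and 5.14 in the silenced cultures (change -1.67 ± 0.28, adjusted p = 0.0033), and was above background on 1 silenced array. The actins Actg2, Acta2 and Actg1 made up the rest of the list's named falls. Unc45a, a myosin chaperone, rose by 0.76 ± 0.22 (adjusted p = 0.035). The remaining lower call, Klhl40, lay above background on no array, so no change is given for it. These last 2 were named after their values were seen.

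Of 8 myoblast markers, all but Myf5 were well above background on every array, and Myf5 was on none. Myod1, Cdh15 and Des were lower in silenced cells by their brightest probes (changes -1.95, -0.86 and -1.35), and none was higher. Cdh15 missed the threshold with the slide row (adjusted p = 0.075) or the replicate number (0.054) as a block. Pax7 changed by 0.02 (adjusted p = 0.97), but passed as higher with cyclic loess (0.39, adjusted p = 0.029). A dimmer probe of Itga7 was lower (change -2.20 ± 0.23, adjusted p = 0.00055), while its brightest changed by -0.18 ± 0.19 (adjusted p = 0.55). For Ncam1, a dimmer probe was lower (change -2.0 ± 0.28, adjusted p = 0.0016). The brightest Ncam1 probe changed by -0.42 ± 0.23 (adjusted p = 0.21). Its other tested probes changed by -0.10 and 0.23, neither past the threshold. The summed linear signal of 8 markers of differentiated myotubes was 4526 to 5767 in the controls and 2661 to 2996 in the silenced cultures, with Tmem8c, the myoblast fusion factor, and Acta1 called lower. Without Acta1 the sums were 2335 to 2844 and 1888 to 2150, so that this contractile gene carried most of the difference. Adult muscle markers summed to 601 to 1474 and 970 to 1289, with 2 of 7 tested called lower, and 5 of the 8 were above background on no silenced array. Without the contractile genes Ckm and Mb the sums were 379 to 648 and 291 to 351. The lower calls were Atp2a1 (change -2.37 ± 0.44, adjusted p = 0.0054), above background on 1 silenced array, and Myh1. Myh1 was above background on 2 control arrays and no silenced array, at least 1.03-fold higher in the controls. The 5 smooth muscle markers summed to 68926 to 110468 in the controls and 26528 to 44547 in the silenced cultures, with Acta2 and Tagln lower (changes -1.70 and -1.60) and the other 3 not past the threshold by their brightest probes. A dimmer probe of Smtn, one of these 3, fell by 1.88 ± 0.24 (adjusted p = 0.0010), while its brightest changed by 0.19 ± 0.22. Cardiomyocyte markers summed to 1525 to 2354 and 2540 to 3427, with none of the 4 tested called. Of these, Nppb was higher on every silenced array by its brightest probe (change 0.77 ± 0.25, adjusted p = 0.051). Its adjusted p ran from 0.0012 with cyclic loess to 0.16 with the slide row as a block. A dimmer Nppb probe, above background on every array, changed by 0.0016 ± 0.31 (adjusted p = 0.998). Liver markers, from a tissue these cells are not, summed to 838 to 1671 in the controls and 4630 to 5825 in the silenced cultures, where 6 of 8 were above background on all silenced arrays and 7 on no control array. The other, Apoa2, was the 1 tested and did not pass by its tested probe. Its other probe was above background on no control and all 4 silenced arrays, at least 4.50-fold higher in the silenced cultures. Too few values left the other genes untested, and the bounds were at least 25.0-fold higher in the silenced cultures for Mup1 and at least 10.3-fold for the brighter Alb probe. The part of these markers in the changes of contractile genes was not tested.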

How the data were processed

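Total RNA of 8 C2C12 cultures, 4 per group, was measured on Agilent arrays that shared 1 slide and 1 scan. The scanner files deposited by the authors hold the intensity of each spot on a linear scale, background-subtracted by Feature Extraction 12.0.0.7 per the file headers (the labels name another version) and not normalized between arrays. A deposited series table of intensity values served as an alternative. Array-wide flags of 0 or 1 (other values) for signal above background were taken from the deposited files.

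Spots not positive and significant were set to missing as in the study's methods, and so were outlier spots. Log2 values computed from the deposited intensity were quantile normalized, and spots of one probe were averaged. Probes with at least 3 of 4 values per group entered a limma 3.58.1 fit (lmFit, then eBayes, under R 4.3.3) that compared the groups without covariates, and p-values were adjusted by Benjamini-Hochberg over all 28649 probes at 0.05. A gene was read through its tested probe of the highest mean. Sums over marker lists used values without the mask. The code was tested on simulated data.

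Contractile genes and lists were chosen with earlier results of these data known. Array values were given for called genes, the 6 brightest genes not called, and genes whose probes disagreed in call or sign, and partner genes for the 8 largest called changes. Gene names and mm9 coordinates are those of the array design. A gap between mapped blocks marked a probe as crossing a junction. The coding position of probes was not analysed here. Figures were drawn with matplotlib 3.10.9. Array number limits the precision. Replicate numbers were taken as names: the deviations of same-numbered arrays correlated at -0.04 to 0.22. Alternatives were other normalizations, background correction, masks, filters, priors, blocks, gene rules and arrays left out.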

Additional observations from a re-analysis of the deposited data

Results flagged for a closer look

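Every tested probe of a contractile gene with 4 values in a group was examined. In 14 of 150 such groups the lowest array stood apart from the other three by Dixon's test at 95%, a rate at which chance marks about 1 group in 20. The 4th silenced array, the dimmest, gave 8 of them. On it Myl9 read 12.40 against 13.11 to 13.25 on the other silenced arrays, Tnni1 (upstream probe) 6.14 against 7.28 to 7.42, Tpm3 (farthest upstream probe) 6.65 against 7.85 to 7.95, Tpm2 (brighter probe) 12.91 against 13.15 to 13.20 and Myl6 (probe 869 bases upstream) 14.30 against 14.54 to 14.57. It also read 5.74 for a Myl1 probe against 10.70 to 11.24, 5.61 for the dimmest tested Tnnt3 probe against 7.11 to 7.15, and 8.21 for the second brightest Ttn probe against 8.95 to 9.08. Tnni3 read 8.02 on the 4th control against 8.64 to 8.74, and Mybpc3 read 8.95 there against 9.39 to 9.46 and the dimmest tested Ttn probe 4.66 against 5.27 to 5.31. On the 3rd control Myl12a read 15.40 against 15.96 to 15.99. On the 1st control Tcap read 8.12 against 9.0 to 9.13, and on the 2nd control Myl6 (brightest probe) read 16.58 against 16.66 to 16.68. The cause of these gaps was not tested.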

How the results depend on the processing

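Among the 10 called genes, Actc1, Acta1, Xirp1, Des and Tpm1 kept their direction and passed the threshold in all 23 alternatives, and the range was -2.64 to -2.32 for Actc1 and -2.09 to -1.31 for Xirp1. No called gene reversed. Actn3 no longer passed in 9, Mylk in 16 of 22, and Myl6b, Mylk2 and Tnni2 in 2 each (for Myl6b, its second probe alone and the mean of both). The count of contractile genes that fell was 5 to 11, with 11 only when all probes of a gene were averaged. The count that rose moved more: 5 with a 75th percentile shift, 8 with cyclic loess and 1 with the slide row as a block. It was 7 with the authors' series table and with no mask on dim spots, which tested 58 contractile genes against 47 in the main fit. The share of all genes that rose moved too, from 5.99% to 22.1% with cyclic loess and 2.41% with the slide row as a block. For the other alternatives the share of all genes is not given, so those counts cannot be set against a background. Leaving out 1 array gave 1 to 6 that rose (1 without the 2nd control, 6 without the 4th silenced array) and 5 to 7 that fell. Without both the 3rd control and the 4th silenced array, an alternative chosen after seeing the data, 7 rose and 7 fell. Partner genes that rose went from 2 to 4 (75th percentile shift), 5 (cyclic loess) and 6 (series table, and no mask, with 50 tested against 42). They came to 1 with the slide row as a block, with a Welch t-test (Benjamini-Hochberg) on the same values, and with the mean of all probes. Without both arrays they came to 5, and with 1 array left out to 1 to 4. The replicate number was also used as a block, although same-numbered arrays correlated at only -0.04 to 0.22. Replicates 2 and 3 correlated highest with their own number, and 1 and 4 did not. With this block, 4 contractile genes rose and 6 fell, and partner genes that rose came to 1. Pvt1 changed by -2.86, and Actn3 was the called gene lost.

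With all probes of a gene averaged, Actn1 and Tpm3, not called by their brightest probes, passed at -1.67 (adjusted p = 0.0015) and -0.89 (adjusted p = 0.042). Changes near 0 took the other sign in some alternatives. Tnni3 and the brightest Tnnt3 probe did so with cyclic loess (0.25 and 0.081) and in the series table (0.24 and 0.067). Tpm3 changed by 0.057 with a 75th percentile shift, 0.015 with array medians subtracted, 0.015 in the series table, 0.028 with no mask and -0.075 to 0.038 with 1 array left out. Tpm4 changed by 0.089 with the shift, 0.014 with cyclic loess, 0.0082 in the series table, 0.034 with no mask, 0.0092 with the slide row as a block, 0.014 without both arrays and -0.090 to 0.024 with 1 array left out. Actn4 changed by 0.022 with the 75th percentile shift and 0.023 with cyclic loess, and Myl12a by -0.098 to 0.10 with 1 array left out and by -0.086 without both. The cause was not tested. A probe above background on no array of a group gives at most a bound.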
